A study of Mus musculus with 12 samples.

Results

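Small leucine-rich proteoglycans were examined in 4 mouse blood vessels through 9 genes: Dcn, Bgn, Aspn, Lum, Fmod, Prelp, Omd, Ogn and Podn. The genes were taken by symbol from a list, and each of the 9 had exactly 1 single-symbol probe set among 19938 genes measured. RNA came from the superior mesenteric artery, which supplies the intestine, from the descending and the ascending aorta, and from the coronary artery, with 3 biological replicates of each vessel and 12 Affymetrix arrays in all. Every animal was an untreated wild-type C57BL/6 mouse 8 weeks old. Vessel was the single labelled factor that differed between groups, and the study asked which expression profiles go with the embryonic origin of a vessel. Whether a replicate was 1 animal or a pool is not stated, so the p-values below measure the spread between these samples. Levels are log2 expression values, given as mean ± SD with n = 3 arrays per vessel, and differences between vessels are in log2 units ± SE. Levels of different genes are not compared, because each rests on its own probes, and whether low levels lay above background is not known.

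Small leucine-rich proteoglycans are secreted matrix proteins built around a curved stack of leucine-rich repeats. Most carry chondroitin, dermatan or keratan sulfate chains, bind to collagen fibrils, and set fibril width and spacing, and several also bind transforming growth factor beta. In arteries they are made by adventitial fibroblasts and by smooth muscle cells, and loss of biglycan is known to weaken the aortic wall. By sequence they fall into classes: decorin, biglycan and asporin in class I, lumican, fibromodulin, Prelp and osteomodulin in class II, osteoglycin in class III, and podocan in class V.

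Several of the genes are neighbours. In the RefSeq gene table for GRCm38.p6, Aspn, Omd and Ogn are consecutive protein-coding genes on chromosome 13, Dcn and Lum are consecutive on chromosome 10, and Prelp and Fmod on chromosome 1; Bgn lies on chromosome X and Podn on chromosome 4. The RefSeq promoter table held 7 of the 9 genes. Shown here are the 250 bases before the start site, 5′ to 3′, for Bgn, Prelp, Ogn and Aspn, whose levels moved together across arrays, and for Omd, which sits between Aspn and Ogn. Capitals mark matches on either strand to the E-box CANNTG and to the hexamer TATAAA.
Bgn, chrX:73483351-73483600, plus strand: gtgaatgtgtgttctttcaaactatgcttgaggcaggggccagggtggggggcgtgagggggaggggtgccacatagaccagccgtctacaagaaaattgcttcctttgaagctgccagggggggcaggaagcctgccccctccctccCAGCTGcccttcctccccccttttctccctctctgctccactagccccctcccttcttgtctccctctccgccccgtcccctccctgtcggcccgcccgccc
Prelp, chr1:133921402-133921651, minus strand: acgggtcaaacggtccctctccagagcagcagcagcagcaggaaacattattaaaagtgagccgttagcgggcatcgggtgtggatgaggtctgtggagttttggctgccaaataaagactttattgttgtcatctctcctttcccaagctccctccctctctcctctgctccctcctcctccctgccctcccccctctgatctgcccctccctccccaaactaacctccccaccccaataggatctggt
Ogn, chr13:49607765-49608014, plus strand: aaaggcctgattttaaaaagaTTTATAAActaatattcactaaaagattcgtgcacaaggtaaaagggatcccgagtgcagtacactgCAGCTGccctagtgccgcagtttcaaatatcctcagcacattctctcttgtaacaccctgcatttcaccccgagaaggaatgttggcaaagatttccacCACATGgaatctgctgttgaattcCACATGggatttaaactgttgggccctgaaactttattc
Aspn, chr13:49544193-49544442, plus strand: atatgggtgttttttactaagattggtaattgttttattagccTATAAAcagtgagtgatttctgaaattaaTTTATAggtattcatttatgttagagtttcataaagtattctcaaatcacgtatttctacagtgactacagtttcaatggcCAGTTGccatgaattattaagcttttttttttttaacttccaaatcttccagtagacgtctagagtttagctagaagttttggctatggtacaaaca
Omd, chr13:49582212-49582461, plus strand: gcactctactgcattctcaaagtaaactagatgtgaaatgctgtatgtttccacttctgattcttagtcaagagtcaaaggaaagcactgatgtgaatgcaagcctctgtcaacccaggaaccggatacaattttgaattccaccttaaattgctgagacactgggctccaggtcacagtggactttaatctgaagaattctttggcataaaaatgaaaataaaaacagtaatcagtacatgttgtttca
Upstream of Ogn there were 3 E-box matches and 2 overlapping TATAAA matches, 1 on each strand, and upstream of Aspn 1 E-box and 2 TATAAA matches. Bgn had 1 E-box match, and Prelp and Omd had 0 matches to either motif. Among 32851 promoter windows of this length, 66.2% held an E-box match and 12.4% a TATAAA match. A search for the serum response element known as the CArG box, held by 1.47% of windows, gave 0 matches in all 5. Aspn had 30.0% G and C, Omd 38.4%, Ogn 42.0%, Prelp 55.6% and Bgn 64.4%, against a median of 52.4% over all windows. These matches describe letters and show no binding.

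One array stood apart before any comparison of vessels. In replicate 1 of the ascending aorta all 9 genes were at their lowest of the 12 arrays, while 15.3% of all genes had their lowest value there. The mean of the other ascending aorta arrays exceeded it by 2.30-fold for Podn, 2.74-fold for Dcn, 10.9-fold for Lum and 13.3-fold for Ogn, the 2 lowest and 2 highest of the 9 ratios. In the same array 14 measured fibroblast markers averaged 5.38, against 8.06 and 7.94 in replicates 2 and 3, and smooth muscle markers averaged 6.25 against 8.02 and 8.12. B cell and T cell markers averaged 7.65 and 7.79 there, against 4.17 and 4.30 and against 3.72 and 4.57 in the other arrays of that vessel. The part of these cell types in the low proteoglycan values was not tested. In bulk samples, fewer cells of a type and less RNA per cell cannot be told apart.

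**Figure D1:**
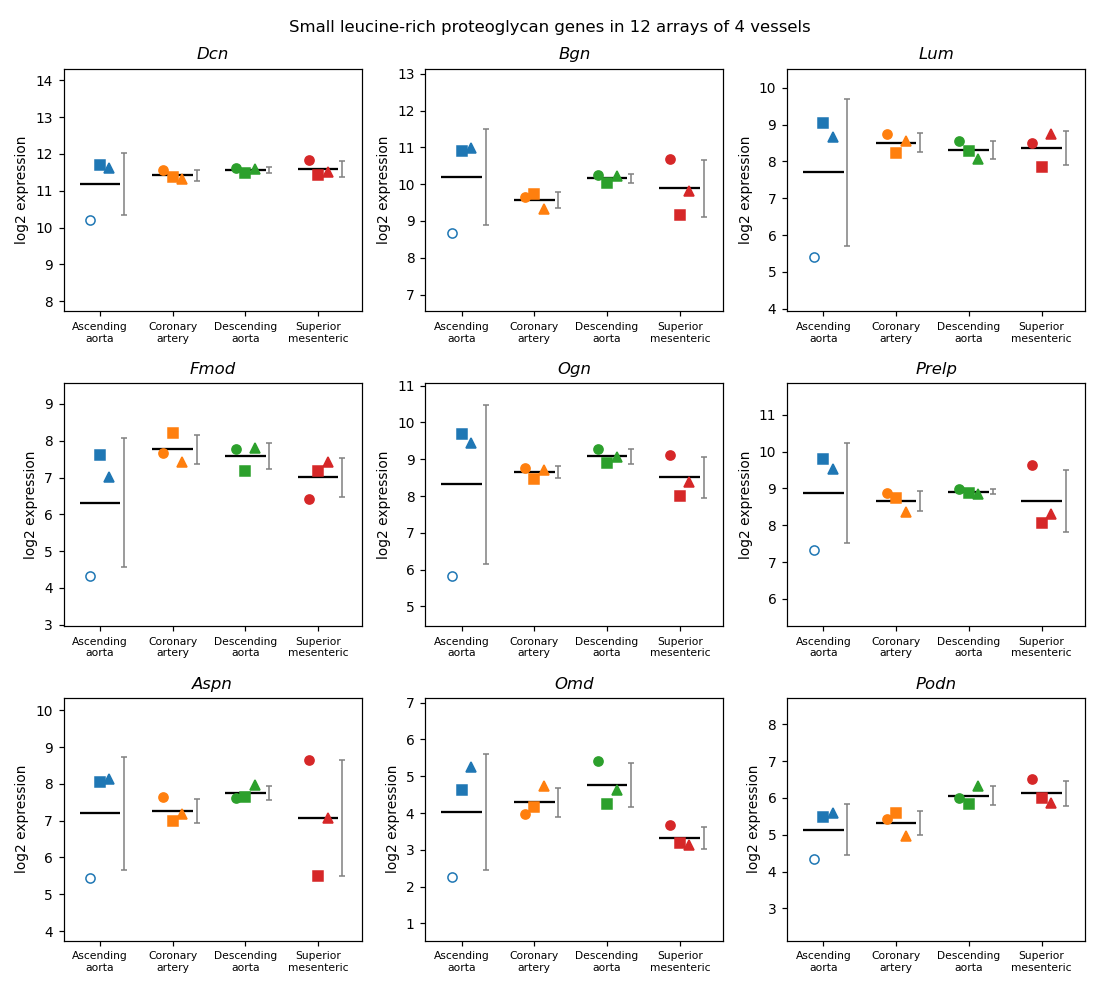
Log2 expression of the 9 proteoglycan genes (vertical axes, each spanning the same number of log2 units) in 4 vessels. Points are arrays (circle, square and triangle for replicates 1, 2 and 3; open circle, ascending aorta replicate 1), black lines are vessel means and grey bars are ± 1 SD. The open circle is the lowest point in all 9 panels.

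Across the 4 vessels none of the 9 genes differed past the threshold of adjusted p under 0.05 in limma's moderated F test, which called 4.72% of all genes. At an unadjusted p under 0.05 there was 1 gene, Podn. In the 6 pairwise contrasts 0 of 54 differences passed in limma, and 6, with 1 in each contrast, had an unadjusted p under 0.05. Over all genes the limma contrasts called 0.015% between ascending and descending aorta, 2.47% between ascending aorta and coronary artery, and 0.176% between ascending aorta and superior mesenteric artery. They called 3.14% between coronary artery and descending aorta, 3.24% between coronary and superior mesenteric arteries, and 3.2% between descending aorta and superior mesenteric artery. In the same order the share of all genes at an unadjusted p under 0.05 was 9.64%, 14.8%, 7.22%, 12.7%, 14.8% and 13.9%, so 1 gene of 9 per contrast was near the background.

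The precision left room for sizeable differences. The 95% intervals reached between 0.69 and 1.63 log2 units to either side of an estimate, with a median of 1.29, so a missed threshold does not show equal levels. Of the 54 differences, 51 were smaller than 1 log2 unit, and their median size was 0.35. Of the 27 differences that involve the ascending aorta, 16 had the opposite sign when its replicate 1 was left out. Between ascending and descending aorta, for example, 8 of 9 genes had negative differences, with a median of -0.60 (all genes, -0.016), and without that array 7 of 9 had positive ones, with a median of 0.35. Without it, 3 differences passed in limma: Bgn between ascending aorta and coronary artery, and Omd between superior mesenteric artery and either aortic segment. In the order above, that fit called 0.01%, 3.85%, 3.15%, 5.3%, 6.48% and 6.83% of all genes. With all arrays, vessels that did not overlap numbered 1, 0, 1, 3, 2 and 1 among the 9 genes in that order, against 15.7%, 19.3%, 9.35%, 22.4%, 22.4% and 22.9% of all genes, and 4 of these 8 were Podn.

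**Figure D2:**
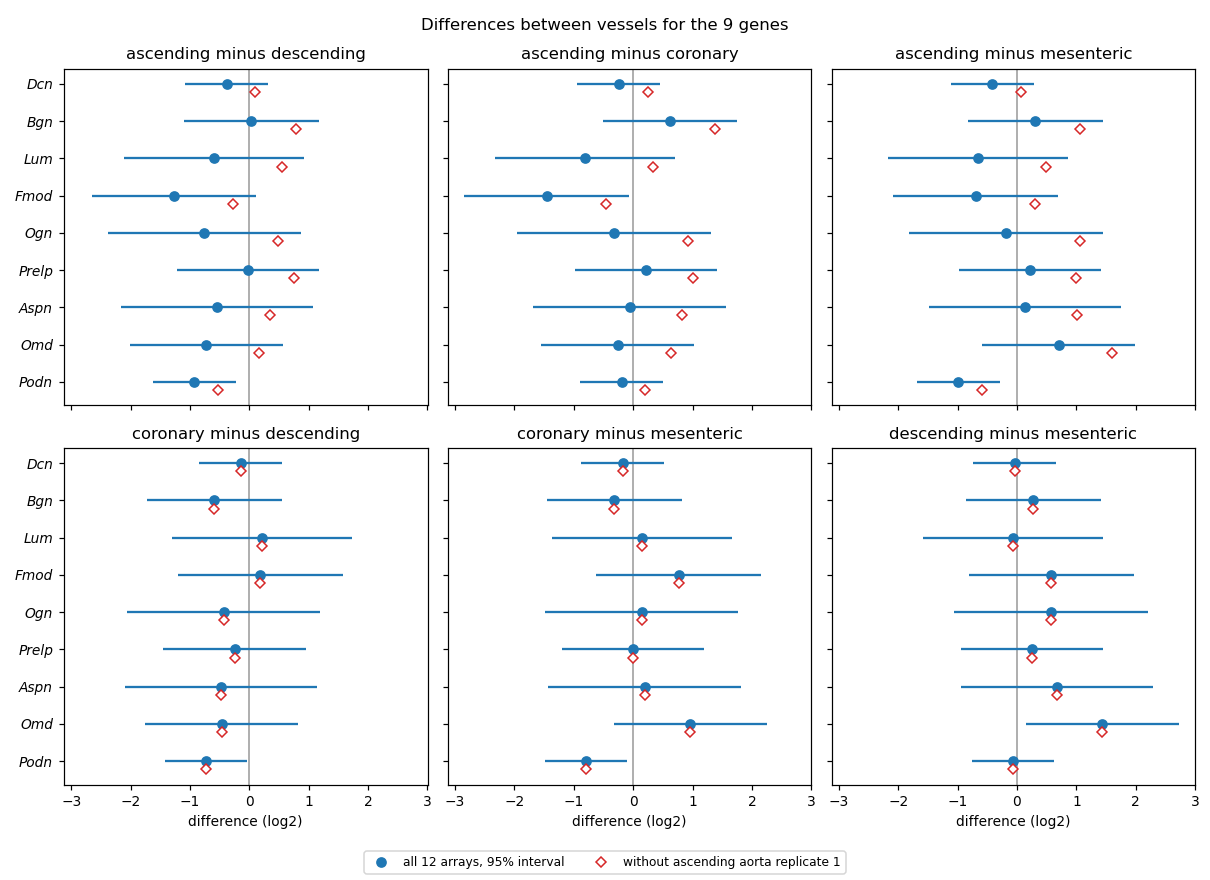
Differences between vessels (horizontal axes, log2 units, first vessel minus second) for the 9 genes in each of the 6 pairs. Filled circles with bars are estimates from all 12 arrays with 95% intervals, and open diamonds are estimates without ascending aorta replicate 1, which lie to the right of the circles for every gene in the 3 pairs with the ascending aorta.

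Decorin, the class I proteoglycan that binds collagen and transforming growth factor beta, varied least. Dcn read 11.58, 11.37 and 11.31 in coronary artery, 11.62, 11.47 and 11.59 in descending aorta, and 11.84, 11.44 and 11.51 in superior mesenteric artery. In ascending aorta it read 10.20, 11.71 and 11.61. Apart from the first of these, the arrays lay within 0.53 log2 units of each other, and the vessels overlapped. Descending aorta and superior mesenteric artery differed by -0.04 ± 0.32, with a 95% interval from -0.73 to 0.66.

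Biglycan, the closest relative of decorin, was highest in the ascending aorta arrays 2 and 3. Bgn read 8.68, 10.89 and 10.99 in ascending aorta and 9.65, 9.74 and 9.32 in coronary artery. In descending aorta it read 10.24, 10.02 and 10.21, and in superior mesenteric artery 10.69, 9.15 and 9.81. Every coronary artery array was lower than every descending aorta array, a pattern that 12.5% of all genes showed between these vessels, and the difference of -0.59 ± 0.52 did not pass (limma adjusted p = 0.759). Ascending aorta minus coronary artery was 0.62 ± 0.52 (limma adjusted p = 0.624). Without ascending aorta replicate 1 it was 1.37 ± 0.33, a 2.59-fold difference that passed (limma adjusted p = 0.0376). In that pair of vessels the smooth muscle marker means were 8.02 and 8.12 in ascending aorta replicates 2 and 3 and between 5.41 and 5.69 in coronary artery, and their part in the Bgn difference was not tested.

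Asporin, named for its run of aspartate residues, had its widest spread in the superior mesenteric artery. Aspn read 8.64, 5.49 and 7.08 there, and 7.64, 6.98 and 7.18 in coronary artery. In ascending aorta it read 5.44, 8.04 and 8.14 and in descending aorta 7.62, 7.65 and 7.96. The superior mesenteric artery thus held both the highest value of the 12 and the lowest but 1, with an SD of 1.57, and all vessels overlapped with it. The smooth muscle marker mean was also high in its first array and lower in the others, at 9.27, 6.09 and 6.52. No Aspn difference had an unadjusted p under 0.05, and limma adjusted p-values were 0.759 or above.

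Lumican and fibromodulin, class II proteoglycans that compete for sites on collagen fibrils, did not vary alike beyond 1 array, with r = 0.83 between them over 12 arrays and -0.02 without ascending aorta replicate 1. Lum read 5.41, 9.04 and 8.67 in ascending aorta and 8.74, 8.24 and 8.55 in coronary artery. It read 8.56, 8.28 and 8.07 in descending aorta and 8.51, 7.84 and 8.74 in superior mesenteric artery. With ascending aorta replicate 1 aside, these arrays overlapped and spanned 1.20 log2 units. Ascending aorta minus coronary artery was -0.81 ± 0.70, and 0.34 ± 0.28 without that array, the opposite sign, with limma adjusted p = 0.635 and 0.653.

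Fmod read 7.67, 8.20 and 7.43 in coronary artery and 7.77, 7.19 and 7.79 in descending aorta. It read 6.41, 7.16 and 7.43 in superior mesenteric artery and 4.32, 7.60 and 7.02 in ascending aorta. Coronary artery replicate 2 was the highest array. Ascending aorta was lower than coronary artery by 1.46 ± 0.64 log2 units, with an unadjusted p of 0.0413 (limma adjusted p = 0.314), and by 0.46 ± 0.33 without its replicate 1 (limma adjusted p = 0.596). With the mean of the fibroblast markers as a covariate, ascending aorta minus coronary artery passed for both genes, at -0.80 ± 0.21 for Lum and -1.45 ± 0.32 for Fmod (limma adjusted p = 0.0379 and 0.0157). That fit called 6.23% of all genes in this contrast, against 2.47% without the covariate. In the same fit Lum was higher in coronary artery than in descending aorta by 1.17 ± 0.22 (limma adjusted p = 0.00807), against 0.21 ± 0.70 without the covariate. Fmod was higher in coronary than in superior mesenteric artery by 1.13 ± 0.32 with it (limma adjusted p = 0.0479), against 0.77 ± 0.64. The covariate fit called 4.44% and 8.55% of all genes in these coronary contrasts. Fibroblast marker means lay between 6.94 and 7.30 in coronary artery and between 7.82 and 7.94 in descending aorta, and ascending aorta replicate 1 had the lowest mean of all arrays. With this list r was 0.87 for Lum and 0.74 for Fmod over all arrays, and 0.36 and -0.12 without that array. No covariate fit without that array is given, so how far these calls rest on it was not tested.

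Prelp, a proline- and arginine-rich proteoglycan that ties collagen to basement membranes, was nearly level in the descending aorta. It read 8.99, 8.89 and 8.85 there and 8.88, 8.75 and 8.36 in coronary artery. In ascending aorta it read 7.32, 9.80 and 9.53 and in superior mesenteric artery 9.63, 8.06 and 8.29. Ascending aorta replicates 2 and 3 and superior mesenteric artery replicate 1 were its highest arrays, the same arrays in which smooth muscle markers averaged highest. Coronary and superior mesenteric arteries differed by 0.00 ± 0.55, with a 95% interval from -1.20 to 1.20, and without ascending aorta replicate 1 the ascending aorta exceeded coronary artery by 1.0 ± 0.36 (limma adjusted p = 0.188).

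Osteomodulin, a keratan sulfate proteoglycan best known from bone, was lowest in the superior mesenteric artery. Omd read 3.68, 3.18 and 3.13 there, against 5.41, 4.25 and 4.63 in descending aorta and 3.98, 4.17 and 4.74 in coronary artery. In ascending aorta it read 2.25, 4.62 and 5.24. Every superior mesenteric artery array was below every array of descending aorta and coronary artery, and overlap came only from ascending aorta replicate 1. By mean the order was descending aorta at 4.76 ± 0.59, coronary artery at 4.30 ± 0.40, ascending aorta at 4.04 ± 1.58 and superior mesenteric artery at 3.33 ± 0.30, and no neighbours in that order differed past the threshold.

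Descending aorta exceeded superior mesenteric artery in Omd by 1.43 ± 0.59, a 2.70-fold difference with a 95% interval from 0.15 to 2.72 and an unadjusted p of 0.0319. It did not pass (limma adjusted p = 0.290). It passed without ascending aorta replicate 1, an array of neither vessel that widens the shared estimate of spread (1.43 ± 0.31, limma adjusted p = 0.0120). It passed also with array weights (1.57 ± 0.41, limma adjusted p = 0.0343) and with the 6 arrays of the pair alone (1.43 ± 0.30, limma adjusted p = 0.0320). Ascending aorta minus superior mesenteric artery was 0.71 ± 0.59, and 1.60 ± 0.34 without that array (limma adjusted p = 0.972 and 0.0230). Over the 4 vessels Omd had an adjusted p of 0.504 in limma's F test and of 0.0179 without that array, where 9.15% of all genes were called. Among all genes, 11.3% were higher in every coronary artery array, and 12.5% in every descending aorta array, than in any superior mesenteric artery array. Brown adipocyte markers averaged between 7.85 and 8.65 in descending aorta, 6.88 and 7.76 in ascending aorta, 5.99 and 6.19 in coronary artery and 4.17 and 5.02 in superior mesenteric artery. B cell markers averaged between 3.91 and 5.13 in descending aorta and at 4.94, 6.99 and 6.64 in superior mesenteric artery, and the part of either in the Omd difference was not tested. Chondrocyte markers, a list for the skeletal cells that also make these proteins, averaged between 3.49 and 3.84 in all 12 arrays.

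Osteoglycin, also called mimecan, is the class III member and the neighbour of Omd. Ogn read 5.84, 9.70 and 9.44 in ascending aorta and 9.29, 8.89 and 9.06 in descending aorta. It read 8.76, 8.47 and 8.71 in coronary artery and 9.12, 8.01 and 8.39 in superior mesenteric artery. Coronary artery lay below descending aorta in every array, by 0.43 ± 0.75 log2 units (limma adjusted p = 0.907). Without ascending aorta replicate 1, ascending aorta exceeded superior mesenteric artery by 1.06 ± 0.28 and coronary artery by 0.92 ± 0.28, and neither passed (limma adjusted p = 0.0631 and 0.102).

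Podocan, a class V proteoglycan known to restrain smooth muscle growth, was lower in every array of ascending aorta and coronary artery than in any array of descending aorta and superior mesenteric artery. Podn read 4.34, 5.49 and 5.59 in ascending aorta and 5.42, 5.60 and 4.97 in coronary artery. It read 6.01, 5.83 and 6.34 in descending aorta and 6.51, 5.99 and 5.87 in superior mesenteric artery. The highest of the first 6 arrays, at 5.60, lay below the lowest of the other 6, at 5.83. Podn was the 1 gene of the 9 with this arrangement, which 28 genes (0.14%) shared among all measured, with 16 (0.0802%) arranged the other way. The arrangement was noticed after the values were seen and was not tested.

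Podn had 4 of the 6 unadjusted p-values under 0.05. Ascending aorta was lower than superior mesenteric artery by 0.99 ± 0.32 (unadjusted p = 0.00906) and lower than descending aorta by 0.92 ± 0.32 (unadjusted p = 0.0131). Coronary artery was lower than superior mesenteric artery by 0.79 ± 0.32 (unadjusted p = 0.0282) and lower than descending aorta by 0.73 ± 0.32 (unadjusted p = 0.0406). None passed, with limma adjusted p-values between 0.261 and 0.425. Every array was lower in each of these pairs, which held for 4.62%, 9.62%, 11.1% and 12.5% of all genes. Without ascending aorta replicate 1 the first of these was -0.59 ± 0.25 and the second -0.52 ± 0.25, and the coronary differences kept their size with limma adjusted p = 0.0572 and 0.0959. Descending aorta and superior mesenteric artery were at 6.06 ± 0.26 and 6.12 ± 0.34, and ascending aorta and coronary artery at 5.14 ± 0.70 and 5.33 ± 0.33. Cardiomyocyte markers averaged 10.19 in coronary artery, 4.09 in ascending aorta, 4.56 in descending aorta and 4.84 in superior mesenteric artery. Their part in the Podn differences was not tested.

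The genes moved together across arrays, though in part through 1 array. Over the 36 pairs of genes Pearson's r across all 12 arrays ran from 0.31 to 0.95 with a median of 0.74, and 0 pairs had a negative r. Without ascending aorta replicate 1 the median was 0.47, the range -0.46 to 0.93, and 9 pairs were negative. Bgn, Prelp, Ogn and Aspn held together in those 11 arrays, with r between 0.82 and 0.93, although they belong to 3 classes and lie on 3 chromosomes. Bgn and Prelp had r = 0.95 over 12 arrays and 0.93 over 11. Fmod stood apart from its neighbour Prelp, at 0.49 and -0.28, and Omd was nearer to its neighbour Ogn, at 0.82 and 0.73, than to its other neighbour Aspn, at 0.68 and 0.48. Dcn had r = 0.79 with Bgn, 0.79 with Prelp, 0.66 with Ogn and 0.70 with Aspn over the 11 arrays. These correlations are descriptions over arrays of 4 vessels that share tissue makeup. The group of Bgn, Prelp, Ogn and Aspn was picked from these same values, and no r for gene pairs in general is given for comparison.

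**Figure D3:**
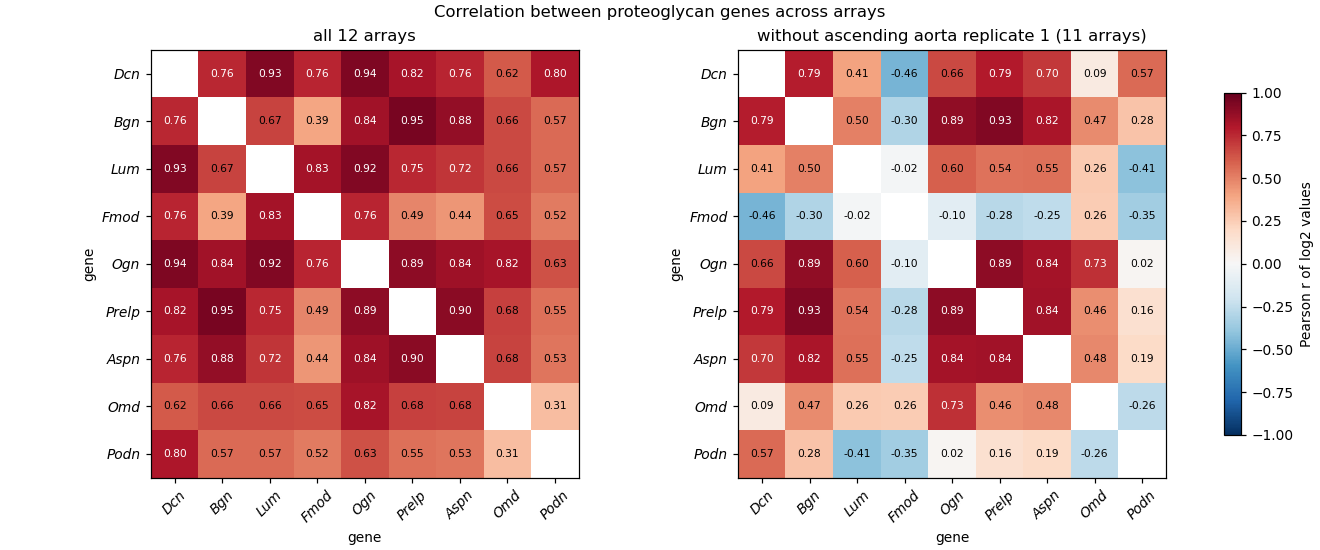
Pearson's r of log2 values between each pair of the 9 genes (rows and columns), over all 12 arrays (left) and without ascending aorta replicate 1 (right); red is positive and blue negative. Bgn, Prelp, Ogn and Aspn are between 0.82 and 0.93 on the right, where Fmod is at or below 0.26 with every other gene.

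Marker lists for the cells that make these proteins moved along with some of them, as did lists for other cells. With the mean of the smooth muscle markers, r over 12 arrays was 0.79 for Bgn, 0.70 for Prelp, 0.64 for Aspn and -0.16 for Fmod, and without ascending aorta replicate 1 it was 0.87, 0.80, 0.70 and -0.67. When the 2 arrays farthest from the list's median were left out of the 12, r was 0.74, 0.55, 0.45 and 0.04. For Dcn, Ogn, Podn, Lum and Omd, r with this list was 0.44, 0.45, 0.50, 0.24 and 0.20 over 12 arrays. It was 0.86, 0.66, 0.56, 0.27 and 0.13 without ascending aorta replicate 1, and 0.30, 0.39, 0.35, 0.17 and 0.24 without the 2 farthest. Other lists marked single arrays: pancreatic acinar markers averaged 9.29 in superior mesenteric artery replicate 3 and at most 4.93 elsewhere, and macrophage markers 8.36 in its replicate 2 and 6.48 to 7.72 elsewhere. White adipocyte markers averaged between 8.38 and 9.10 in descending aorta and between 6.22 and 6.63 in coronary artery, and Schwann cell markers between 4.54 and 6.31 in all arrays. For the smooth muscle list, Spearman's rho over 12 arrays was 0.83 for Bgn, 0.73 for Prelp, 0.79 for Aspn and -0.33 for Fmod, and for Fmod -0.48 without ascending aorta replicate 1. With the fibroblast markers r ran from 0.69 for Omd to 0.94 for Ogn over 12 arrays, and from -0.12 for Fmod to 0.82 for Bgn without ascending aorta replicate 1. The fibroblast list shares no gene with the 9. Lists for other cells reached similar sizes without ascending aorta replicate 1. Over the 9 genes r then ran from -0.07 to 0.79 with brown adipocyte markers and from -0.09 to 0.67 with white adipocyte markers. It ran from -0.74 to 0.35 with T cell markers and from -0.75 to 0.03 with macrophage markers. High values were thus not particular to the cells that make these proteins.

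**Figure D4:**
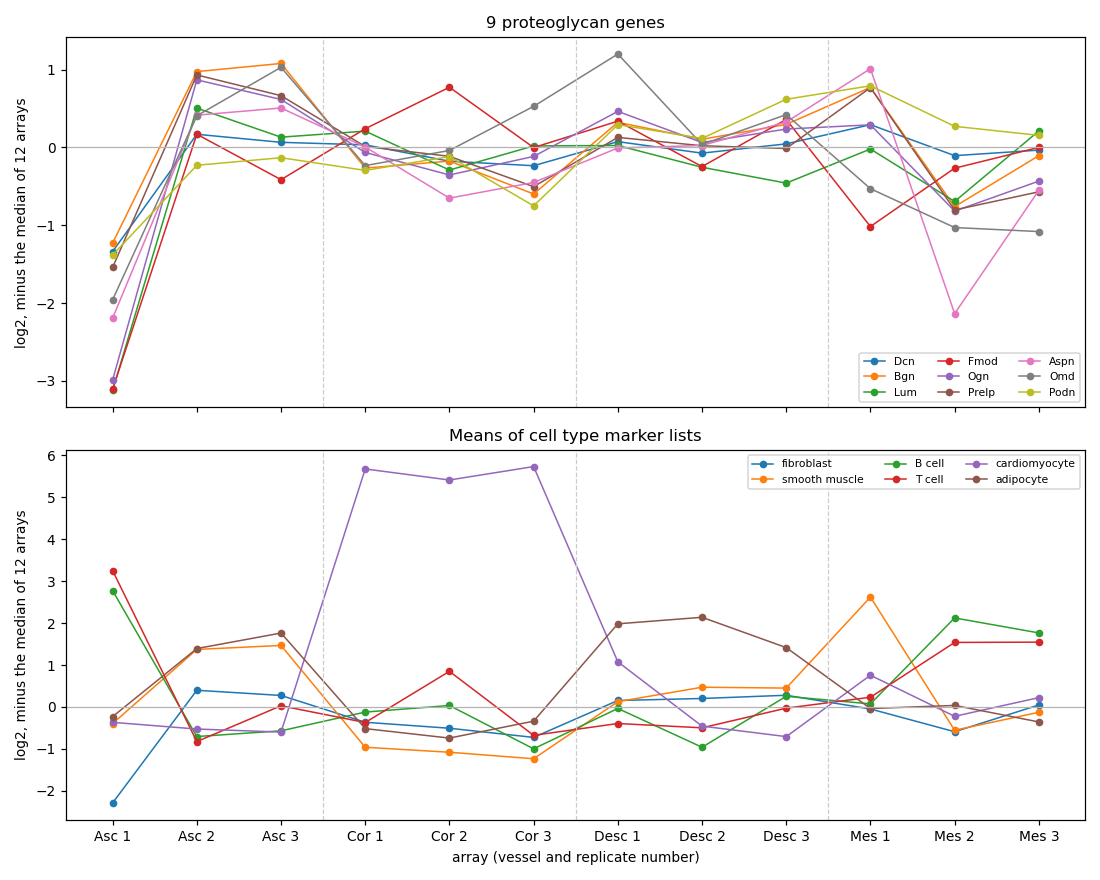
Log2 values of the 9 genes (top) and means of 6 cell type marker lists (bottom) in each array, with the median of the 12 arrays subtracted; arrays are ordered by vessel and replicate number (Asc, ascending aorta; Cor, coronary artery; Desc, descending aorta; Mes, superior mesenteric artery), and lines join arrays only to guide the eye. All 9 genes and the fibroblast mean are lowest in Asc 1, where B cell and T cell means are highest.

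The 3 genes most like each proteoglycan were taken by r over the 12 arrays. They were picked as the highest among all named genes, so high r values follow in part from the picking. No r expected from such picking is given, and shared regulation was not tested. For Bgn they were Anpep, Smoc1 and Ace (0.97, 0.96 and 0.96, and 0.95 each over 11 arrays), of which Ace encodes the angiotensin-converting enzyme and Smoc1 a matrix calcium-binding protein. For Prelp they were Ntn1, Lamb2 and Calcoco1, with Lamb2, a laminin chain of basement membranes, at 0.97 and 0.95. Dcn was nearest to Cav1, Timp2, an inhibitor of matrix metalloproteinases, and Islr, at 0.97 to 0.98, and at 0.82 to 0.86 over 11 arrays. Lum was nearest to Pea15a, Ackr3 and Bicc1, at 0.95 to 0.97, and at 0.54 to 0.76 over 11 arrays. The nearest gene was Nenf for Fmod (0.97), C1qtnf1 for Ogn (0.96), Pde3a for Aspn (0.96), Sycp3 for Omd (0.92) and Lzts2 for Podn (0.90). Over the 12 arrays Podn and Omd thus had no gene as close as the others had. Over 11 arrays these pairs were at 0.82, 0.84, 0.95, 0.87 and 0.80, in the same order, and that ranking did not hold. Sycp3 with Omd then exceeded Nenf with Fmod and C1qtnf1 with Ogn, and Lzts2 with Podn exceeded Pea15a with Lum (0.76).

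Other genes of the family, and the enzymes and partners of these proteins, were read from lists. Of 9 further family members measured (Kera, Epyc, Optc, Chad, Chadl, Nyx, Podnl1, Ecm2 and Nepn), 0 passed in any of the 6 limma contrasts. Ecm2, next to Aspn on the chromosome, read 4.80 in ascending aorta replicate 1, 7.31 and 7.13 in the other arrays of that vessel, and 7.25, 5.34 and 6.19 in superior mesenteric artery, the arrays in which Aspn was high and low too. Kera, the cornea proteoglycan next to Lum, stayed between 2.38 and 3.42.

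Of 22 enzymes that build the linker and the chondroitin and dermatan sulfate chains, 0 passed in any limma contrast, with medians between -0.27 and 0.25. Of 10 keratan sulfate enzymes, 3 passed in at least 1 contrast. Coronary artery differed from ascending aorta in 2 (2.47% of all genes), from descending aorta in 1 (3.14%) and from superior mesenteric artery in 2 (3.24%). Descending aorta differed from superior mesenteric artery in 1 (3.2%). Chst4, a sulfotransferase also known from lymph node vessels, was higher in coronary artery, at 6.71 ± 0.47, than in ascending aorta (4.66 ± 0.63), descending aorta (4.96 ± 0.76) and superior mesenteric artery (4.99 ± 0.35), with limma adjusted p = 0.0169, 0.0345 and 0.0357. Epicardial and mesothelial markers were also highest in coronary artery, with means between 7.56 and 8.09 and of at most 7.15 elsewhere, and cardiomyocyte markers averaged 10.19 there and 4.09 to 4.84 in the other vessels. The part of either in the coronary differences of Chst4, and of Gpc1 given below, was not tested. Chst2, a related sulfotransferase, was higher in ascending aorta than in coronary artery by 1.14 ± 0.24 (limma adjusted p = 0.0273; 0.0519 without ascending aorta replicate 1). St3gal1, a sialyltransferase, was higher in superior mesenteric artery, at 6.80 ± 0.10, than in coronary artery (5.90 ± 0.13) and descending aorta (5.85 ± 0.06), with limma adjusted p = 0.0385 and 0.0301.

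Of 14 collagens and collagen-linked genes, 0 passed in any limma contrast, with medians between -0.42 and 0.20. Of 22 ligands, receptors and processing enzymes, 1 passed: Kdr, the endothelial growth factor receptor that decorin can bind, was higher in coronary artery (5.52 ± 0.21) than in descending aorta (3.45 ± 0.09), with limma adjusted p = 0.00764. Of 17 larger or cell-surface proteoglycans and their link proteins, 1 passed: Gpc1, a glypican, was higher in coronary artery, at 4.88 ± 0.29, than in descending aorta (3.68 ± 0.33) and superior mesenteric artery (3.50 ± 0.19), with limma adjusted p = 0.00872 and 0.00331. The contrasts of coronary artery with descending aorta and with superior mesenteric artery called 3.14% and 3.24% of all genes. Endothelial markers, a list that itself holds Kdr, averaged 6.76 in coronary artery and 5.97 in descending aorta. The part of endothelial content in the Kdr difference was not tested.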

How the data were processed

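RNA of 12 samples, 3 from each vessel, was measured on Affymetrix arrays; per the labels' protocols, biotinylated cRNA was made from 6 ug of Trizol-extracted total RNA. The authors deposited log2 values for 35556 probe sets, between 0.265 and 13.4, and per the submitters' processing notes RMA and Partek 6.6 were used, without their roles or order. Array medians over genes lay between 4.04 and 4.18, no 2 arrays were identical, and precision is limited by how few arrays each vessel has. Gene symbols came from the annotation of the platform (probe sets: 21789 with 1 symbol, 1621 with several, 12146 with none), and the probe set with the highest mean stood for each of 19938 genes. All 12 arrays entered one linear model (a mean for each vessel) in limma 3.58.1 (R 4.3.3, 8 residual degrees of freedom). Benjamini-Hochberg adjustment was over all genes within each comparison, with a threshold of 0.05. The procedure was tested on simulated data with independent noise and no outlying array, a setting unlike these data. Plots were made in matplotlib 3.10.9 under Python 3.11.15.

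The 9 genes, the marker and pathway lists and the tests were chosen with earlier results of these data known. Named by rule were all 9 genes, at most 5 genes past the threshold per list and comparison, and the 3 most correlated other genes of each of the 9 (unnamed gene models skipped); Ecm2, Kera and the genes shown only without ascending aorta replicate 1 were chosen after their values were seen. Lists overlap: Col1a1, Col1a2, Col3a1 and Lox are in the fibroblast and collagen lists, Kdr in the endothelial and receptor lists. Same-numbered arrays of different vessels did not deviate together (r between -0.25 and 0.09 over 18 pairs). Alternatives were other scalings, a filter on the dimmest 25% of genes, the mean of a gene's probe sets, array weights, a variance trend, the replicate block, joint adjustment, pair-only fits, fibroblast and lymphoid covariates, and left-out arrays. RefSeq promoter windows are of GRCm38.p6, and no build was stated for the probe sets.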

Additional observations from a re-analysis of the deposited data

How the results depend on the processing

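The count of the 9 genes past the threshold was 0 in the F test and in all 6 contrasts, and 0 also under a renewed quantile normalization, median centring, the filter on dim genes, the mean of probe sets, the variance trend with robust moderation and joint adjustment over the 6 pairs. With the replicate number as a block (replicate block) it was 0 in all 7 tests; same-numbered arrays share only a number, and 3 of 12 arrays correlated best with an array of their own number. With the fibroblast covariate it was 2 in the F test (Lum and Fmod), 2 between ascending aorta and coronary artery, 1 between coronary artery and descending aorta (Lum) and 2 between coronary and superior mesenteric arteries (Fmod and Omd), where that fit called 9.6%, 6.23%, 4.44% and 8.55% of all genes. That covariate was lowest in ascending aorta replicate 1, and no such fit without this array is given. With the lymphoid covariate, added after the data were seen, the count was 1 in the F test and 1 between coronary and superior mesenteric arteries, Podn in both, and 6.15% and 3.69% of all genes were called. Between descending aorta and superior mesenteric artery it was 1 with array weights and 1 with only the 6 arrays of the pair, Omd in both, with 6.8% and 4.69% of all genes called. Without replicate 1 of each aortic segment and replicate 3 of the superior mesenteric artery, arrays with raised lymphoid, heart muscle or pancreatic markers for their vessel, it was 1 between ascending aorta and superior mesenteric artery (Omd; 1.66% of all genes). Leaving out each array in turn gave counts from 0 to 1 in the F test, in ascending aorta against coronary artery, in ascending aorta against superior mesenteric artery and in descending aorta against superior mesenteric artery, with every 1 coming from the fit without ascending aorta replicate 1 (Omd, Bgn, Omd and Omd); the counts were 0 in the other contrasts.

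Of 12 single differences followed through the alternatives, 1 reversed: Lum in ascending aorta minus coronary artery was 0.0069 with array weights and 0.34 without those 3 arrays, and ran from -1.47 to 0.34 when arrays were left out in turn, the latter without ascending aorta replicate 1. These 12 were a part of the 54 differences. Of all 27 with the ascending aorta, 16 changed sign without its replicate 1. The largest shift in the median difference of all genes under either scaling was 0.083 log2 units. Array weights gave ascending aorta replicate 1 a weight of 0.262, the lowest of the 12. Low levels such as those of Omd may lie near background, which was not measured here.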

Other observations

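Relatives and partners of the 9 genes that passed only in the fit without ascending aorta replicate 1 ran in both directions; they were looked at after the values were seen, and the call lost with that array is stated with each. Optc, a class III proteoglycan of the eye, was higher in ascending aorta than in coronary artery by 1.52 ± 0.26 and than in superior mesenteric artery by 1.64 ± 0.26 (limma adjusted p = 0.00362 and 0.00287, against 0.109 and 0.225 with all 12 arrays). It read 3.65, 4.94 and 4.80 in ascending aorta and between 2.96 and 3.54 in coronary and superior mesenteric arteries. Epyc, a class III proteoglycan of cartilage that is clustered with Dcn and Lum, was lower in superior mesenteric artery than in coronary artery by 1.32 ± 0.27 (limma adjusted p = 0.0104, against 0.0946 with all 12). Between descending aorta and superior mesenteric artery that fit called genes in both directions. Optc, Pcolce, Col1a2 and Col12a1 were higher in descending aorta, by 0.82 ± 0.23, 0.76 ± 0.18, 0.67 ± 0.19 and 0.92 ± 0.20 (limma adjusted p = 0.0495, 0.0212, 0.0480 and 0.0118, against 0.261, 0.606, 0.533 and 0.109 with all 12). In superior mesenteric artery Sdc3, a syndecan, at 6.48 ± 1.10, was higher by 1.85 ± 0.41 and B3gnt2, an enzyme that extends sugar chains, by 1.62 ± 0.26 (limma adjusted p = 0.0157 and 0.00150, against 0.0518 each with all 12). The ligands Tgfb1 and Tgfb2 were higher there by 0.82 ± 0.17 and 0.97 ± 0.25 (limma adjusted p = 0.0121 and 0.0336, against 0.0791 and 0.215). Nyx was higher there by 1.03 ± 0.24 (limma adjusted p = 0.0191, against 0.292). In superior mesenteric artery and descending aorta, B cell markers averaged 6.19 and 4.62, T cell markers 5.65 and 4.24, and macrophage markers 7.56 and 6.82. White adipocyte markers averaged 6.85 and 8.81, and brown adipocyte markers 4.52 and 8.15. The part of these cell types in the differences between these 2 vessels was not tested.

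Among collagens and collagen-linked genes, 5 of 14 were lower in coronary artery than in descending aorta in that fit, against 0 with all 12 arrays: Lox, Col14a1, Col12a1, Col1a2 and Col1a1. Of all genes, that fit called 5.3% in this contrast, against 3.14% with all 12 arrays. Lox, which cross-links collagen, was at 4.38, 4.30 and 3.73 in coronary artery and 6.40, 6.17 and 5.99 in descending aorta (limma adjusted p = 0.000987, against 0.0624). Tgfb3, a ligand that decorin and biglycan can bind, was lower in coronary artery than in descending aorta by 1.27 ± 0.20 (limma adjusted p = 0.00149, against 0.488), and read 3.65 in ascending aorta replicate 1, against values up to 7.04 in the other arrays of that vessel. Fibroblast markers averaged between 6.94 and 7.30 in coronary artery and between 7.82 and 7.94 in descending aorta, a list that itself holds Lox, Col1a1 and Col1a2, and the part of fibroblast content in these differences was not tested.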
